A study of Homo sapiens with 36 samples.

Results

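The comparison described here sets MIA PaCa-2 cells carrying a guide against PELO and given doxycycline (dox) for 48 h against MIA PaCa-2 cells carrying a non-targeting control guide and given dox for the same time. MIA PaCa-2 (MIAPACA-2 in the labels) is an established human pancreatic cancer line, and the non-targeting guide is labelled NTC. The libraries were chosen by their labels alone: 6 of the 36 libraries of the series, 3 from the PELO line with dox and 3 from the control line with dox. Both lines carry a dox-inducible Cas9 and guide system, both were grown in tetracycline-free serum and both received dox at 2 µg/mL, so that within this comparison the guide is the labelled difference. The other groups set beside it are the same lines without dox at 48 h (3 libraries each), the same lines with dox at 96 h (3 each), and a line with a guide against HBS1L given dox for 48 h (3). The study's question was how cells with a destabilised SKI complex fare once PELO or HBS1L is lost. Neither the promoter behind Cas9, nor whether a line is 1 clone or a mixed population, nor whether the replicates are separate cultures is given in the labels, so the p-values below reflect library-to-library spread alone, which may be technical.

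PELO (pelota) works with its GTPase partner HBS1L. Together they enter the empty decoding site of a ribosome that has stopped, most often at the end of a broken messenger or in front of another obstacle, and with the ATPase ABCE1 they split the ribosome into its subunits. The SKI complex, built from the helicase SKIC2 and the scaffold proteins SKIC3 and SKIC8, pulls such messengers out and feeds them to the RNA exosome, and FOCAD is known to keep SKI stable. Colliding ribosomes are also read by sensors that mark the ribosome with ubiquitin, activate the kinase GCN2 upstream of the transcription factor ATF4, or activate the kinase ZAK upstream of JNK and p38.

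The 6 libraries held 47853059 (PELO dox replicate 3) to 53601764 (control dox replicate 2) counts, and 29406 to 29885 genes had a count in the PELO libraries against 30308 to 30441 in the control libraries. The first principal component, 69.1% of the variance, parted the 2 groups. PELO dox replicate 1 lay apart from replicates 2 and 3 on the second component (10.6%), and its counts differed from those of replicates 2 and 3 by 17.4 and 18 times the sampling variance, against 1.81 times between replicates 2 and 3. Levels below are in CPM, the usual measure of a gene's counts relative to the library size, here with TMM-scaled library sizes, and are given per library in the order of replicates 1, 2 and 3. They are not corrected for gene length and are compared only within a gene. Log2 fold changes are PELO dox over control dox ± SE from edgeR's quasi-likelihood test. A gene is said to rise or fall where its Benjamini-Hochberg adjusted p over 20767 genes was below 0.05.

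As to the identity of the cells, KRT8 had 1532, 1474 and 1489 CPM in PELO dox cells against 1405, 1432 and 1507 CPM in control dox cells, and the mesenchymal filament VIM had 7199, 7529.6 and 7459.5 CPM against 7495, 7634 and 7874 CPM. EPCAM had at most 2.5 counts and CDH1 at most 1 count in any of the 6 libraries, so these defining epithelial markers were near 0 in this line. FOCAD, CDKN2A and MTAP, which lie in 1 region of chromosome 9, had at most 1, 1 and 2 counts in any of the 36 libraries. FOCAD was thus at or near 0 in both lines, with and without dox, and the control cells share that background.

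With the PELO guide 5741 genes rose (27.6% of those tested) and 6149 fell (29.6%), 57.3% in all. At least 2-fold changes were seen for 888 rising genes (4.28%) and 1153 falling genes (5.55%). Libraries did not overlap between groups for 6077 genes higher in PELO dox cells (29.3%) and 6689 genes lower (32.2%). The median over all genes tested was -0.04 on the log2 scale. Without PELO dox replicate 1 the calls numbered 5455 rising and 5825 falling. These shares are high, so that the count of a gene list is read below against 27.6% and 29.6%. Most listed genes are protein-coding and well expressed. Among protein-coding genes from 5 CPM upward, 40.8% rose and 32.4% fell. A list with a share of rises near 40.8% is therefore not set apart from genes of its level.

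**Figure D1:**
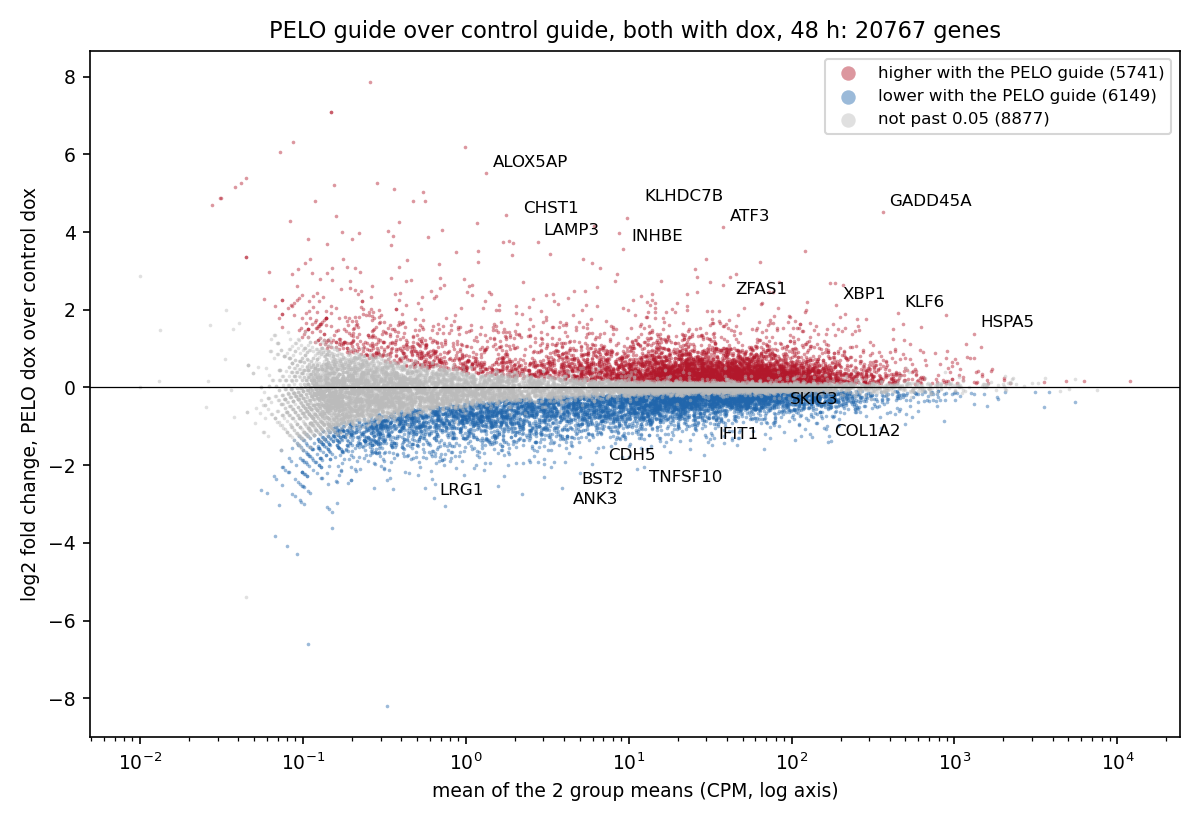
Log2 fold change (y axis, PELO dox over control dox, 48 h) against the mean level (x axis, CPM, log scale) for 20767 genes, with 5741 higher, 6149 lower and 8877 not past 0.05. GADD45A and ATF3 stand far above the other labelled genes of their level, while the labelled falls are smaller. The largest folds in either direction belong to genes below 1 CPM.

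The falling genes sat at lower levels than the rising ones. Among protein-coding genes changed at least 2-fold, the median level was 8.06 CPM for the 589 that rose and 1.29 CPM for the 642 that fell, against 23.2 CPM for the 13925 protein-coding genes tested. Of 1594 protein-coding genes between 1 and 5 CPM, 20.8% rose and 49.1% fell. From 5 CPM upward, 40.8% of 10509 rose and 32.4% fell. Of long noncoding genes, 14.6% rose and 45.8% fell among 753 between 1 and 5 CPM, and 31.6% rose and 40.9% fell among 374 from 5 CPM upward, so falls outnumbered rises at both levels. Whether depth or library scaling plays a part in this was not tested.

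The no-dox libraries of the same time show on which side a difference lay. Of the 888 genes at least 2-fold higher, 350 were above all 6 no-dox libraries in PELO dox cells and below all of them in control dox cells. In 320 only the PELO dox libraries lay beyond the no-dox range, in 103 only the control dox libraries, and in 115 neither. Of the 1153 genes at least 2-fold lower the same 4 counts were 296, 426, 164 and 267. For many genes the control dox libraries thus also lay outside the no-dox range, and the no-dox means of both lines are given for the genes that matter most.

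PELO itself (ENSG00000152684.11, chromosome 5, 52787940 to 52804046, GRCh38) had 20.9, 20.2 and 20.9 CPM in PELO dox cells against 25.7, 24.3 and 24 CPM in control dox cells. Its message fell by 0.25 ± 0.06 on the log2 scale (adjusted p = 0.000184, edgeR quasi-likelihood test), and the groups did not overlap. Without dox the means were 25.2 CPM in the PELO line and 27.5 CPM in the control line, a difference of -0.13 that did not pass the test, and the dox difference minus the no-dox difference was also -0.13 and did not pass either (adjusted p = 0.185, edgeR quasi-likelihood test). At 96 h PELO was at 0.08, which did not pass the test. Exons of another gene cover 10.9% of PELO's exonic bases, and the strand used in counting is not given. Cas9 cuts can stop a protein from being made and leave its message in place, so these counts do not show how much PELO protein was left.

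The partner HBS1L had 124, 131 and 128 CPM in PELO dox cells against 136, 134 and 136 CPM in control dox cells. Its fall of 0.09 on the log2 scale was lost in several settings, among them without PELO dox replicate 1 (-0.07). SKIC3 was the SKI subunit that moved most, with 75.0, 69.8 and 69.7 CPM against 111, 104 and 104 CPM (log2 fold change -0.58 ± 0.05), and the no-dox means of 101 CPM in the PELO line and 104 CPM in the control line put the change in PELO dox cells. SKIC2 had 68.9, 62.5 and 61.5 CPM against 72.2, 74.1 and 70.9 CPM and fell by 0.17. SKIC8 had 23.0, 24.1 and 24.1 CPM against 24.7, 26.3 and 25.5 CPM, and its difference of -0.11 did not hold in several settings. Of the 3 SKI messages, SKIC3 was thus lower by most with the PELO guide, and the fall of SKIC8 was not firm. No-dox means in the PELO and control lines were 67.7 CPM and 63.3 CPM for SKIC2 and 25.4 CPM and 24.2 CPM for SKIC8. For SKIC2 the PELO dox mean of 64.3 CPM lay between the no-dox means, and the control dox mean of 72.4 CPM above both. SKIC3 also fell in HBS1L dox cells over control dox cells (-0.23).

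Of 16 tested ribosome rescue and collision sensing genes, 8 rose and 5 fell (median log2 0.13). ZNF598, the ubiquitin ligase that marks collided ribosomes, had 139.5, 126 and 128 CPM in PELO dox cells against 67.5, 69.2 and 70.3 CPM in control dox cells (log2 fold change 0.92 ± 0.04). GTPBP2, a GTPase that binds pelota and is known from ribosome stalling in mouse neurons, was at 151, 145 and 140.0 CPM against 46.2, 45 and 45.2 CPM (log2 fold change 1.68 ± 0.06). Both were above the no-dox levels, which averaged 79.9 CPM and 81.9 CPM for ZNF598 and 83.7 CPM and 114 CPM for GTPBP2 in the PELO and control lines. ASCC3, the helicase that disassembles collided ribosomes, rose less (0.49), as did the sensor EDF1 (0.37), while EIF4E2, a cap-binding repressor recruited to collisions, fell (-0.29). ABCE1, the ATPase of ribosome splitting, had a log2 fold change of 0.01 and did not pass the test. The kinases that read collisions changed little: ZAK (MAP3K20) rose by 0.17, and GCN2 (EIF2AK4) and its activator GCN1 fell by 0.13 and 0.23. EDF1, ABCE1 and the kinases were named for their roles after their values were seen, as was LTN1.

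Genes that deal with the nascent chain and the messenger leaned upward. Nascent chain quality control counted 7 rising and 1 falling of 12 (median log2 0.18). RNF25, a ubiquitin ligase acting on blocked ribosomes, had 34.6, 36.1 and 32.6 CPM in PELO dox cells against 17.7, 17.9 and 19.7 CPM in control dox cells (log2 fold change 0.90 ± 0.06), the highest fold of that list among the genes named. The ubiquitin ligase RNF14, which acts with it, rose by 0.33, and ANKZF1, which frees stalled chains from transfer RNA, by 0.38. KLHDC10, a ligase adaptor for alanine-tailed chains, fell (-0.23), and the ligase LTN1 had a log2 fold change of -0.08 that did not pass the test. Of 14 tested genes of the SKI complex and cytoplasmic decay, 7 rose and 3 fell, with the endonuclease N4BP2 (0.98) and the decapping proteins DCP2 (0.62) and DCP1A (0.49) ahead. The RNA exosome had 9 rises and 0 falls of 14 subunits and cofactors (median 0.21), from EXOSC9 (0.47), EXOSC8 (0.38) and EXOSC2 (0.35) downward, and 5 did not pass the test.

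The genes with the largest rises and falls were taken among those with a mean of at least 1 CPM over the 6 libraries and no overlap between groups, and many of the rises had a low level in control dox cells. GADD45A, a damage-induced protein on whose gene ATF4 is known to act (ENSG00000116717.13, chromosome 1, 67685061 to 67688338), had 639, 711 and 743 CPM in PELO dox cells against 29.5, 29.6 and 32.8 CPM in control dox cells (log2 fold change 4.51 ± 0.08, adjusted p = 3.51e-30, edgeR quasi-likelihood test). Its no-dox means were 76.8 CPM in the PELO line and 88.9 CPM in the control line, so control dox cells lay below and PELO dox cells far above both. ALOX5AP, which presents arachidonate to the leukotriene enzyme, had the largest fold of these, 5.52 ± 0.32, at 2.64, 2.74 and 2.49 CPM against 0.0715, 0.0357 and 0.0579 CPM. That fold rests on 376 counts over the PELO dox libraries against 9 over the control dox libraries.

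The other large rises were KLHDC7B (4.36), the syntaxin-binding protein gene SYBU (4.23), the sulfotransferase CHST1 (4.17), ATF3 (4.12), INHBE (3.98), the fucosyltransferase FUT1 (3.78), PLEKHG1 (3.76), the lysosomal protein LAMP3 (3.76) and the transcription factor BNC1 (3.71). The noncoding L3MBTL2-AS1 (4.45) shares 37.5% of its exonic bases with another gene. KLHDC7B was at 22.8, 16.3 and 17.1 CPM in PELO dox cells against 0.911, 0.929 and 0.888 CPM in control dox cells, and INHBE, an inhibin chain secreted under amino acid and endoplasmic reticulum stress, at 16.2, 16.7 and 16.3 CPM against 1.14, 0.947 and 1.02 CPM. In each of the 12 leading genes the PELO dox libraries lay above all control dox libraries, as the rule for naming them required. In all 12 the control dox mean also lay below both no-dox means, so part of each fold lay on that side. For FUT1 the PELO dox mean of 3.46 CPM lay between no-dox means of 2.44 CPM (PELO line) and 3.92 CPM (control line). The control dox mean of FUT1 was 0.249 CPM. No-dox means in the PELO and control lines were 3.36 CPM and 9.54 CPM for KLHDC7B, and 7.36 CPM and 11.3 CPM for INHBE.

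The 12 leading falls were between -2.58 and -1.99. ANK3, which anchors membrane proteins to spectrin, had 1.38, 0.886 and 1.08 CPM in PELO dox cells against 7.74, 6.43 and 5.91 CPM in control dox cells (log2 fold change -2.58 ± 0.15), and it was already lower without dox, at 2.42 CPM in the PELO line against 5.40 CPM in the control line. LRG1 (-2.54), the tight junction protein TJP3 (-2.31), CDC42EP5 (-2.29), the lipopolysaccharide co-receptor CD14 (-2.19), the mechanosensitive channel PIEZO2 (-2.11), ANKEF1 (-2.06), the endothelial lipase LIPG (-2.05) and PEG10 (-1.99) were also among them. TNFSF10, which encodes the death ligand TRAIL, had 3.94, 4.37 and 4.38 CPM against 19.3, 17.4 and 17.8 CPM (log2 fold change -2.10 ± 0.12). BST2 and OAS2, both interferon-stimulated, complete the 12. Without dox 8 of the 12 were lower in the PELO line too: ANK3 (-1.15), PEG10 (-1.10), ANKEF1 (-1.05), OAS2 (-0.71), PIEZO2 (-0.50), TNFSF10 (-0.37), BST2 (-0.37) and LIPG (-0.31). Of all genes 4.72% were lower and 6.37% higher there. This was not particular to the falls. Among the leading rises, KLHDC7B (-1.51), L3MBTL2-AS1 (-1.35), LAMP3 (-1.13) and CHST1 (-0.79) were also lower without dox. So were FUT1 (-0.68), INHBE (-0.62), ATF3 (-0.34) and GADD45A (-0.21), while ALOX5AP, SYBU, PLEKHG1 and BNC1 did not pass the test.

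**Figure D2:**
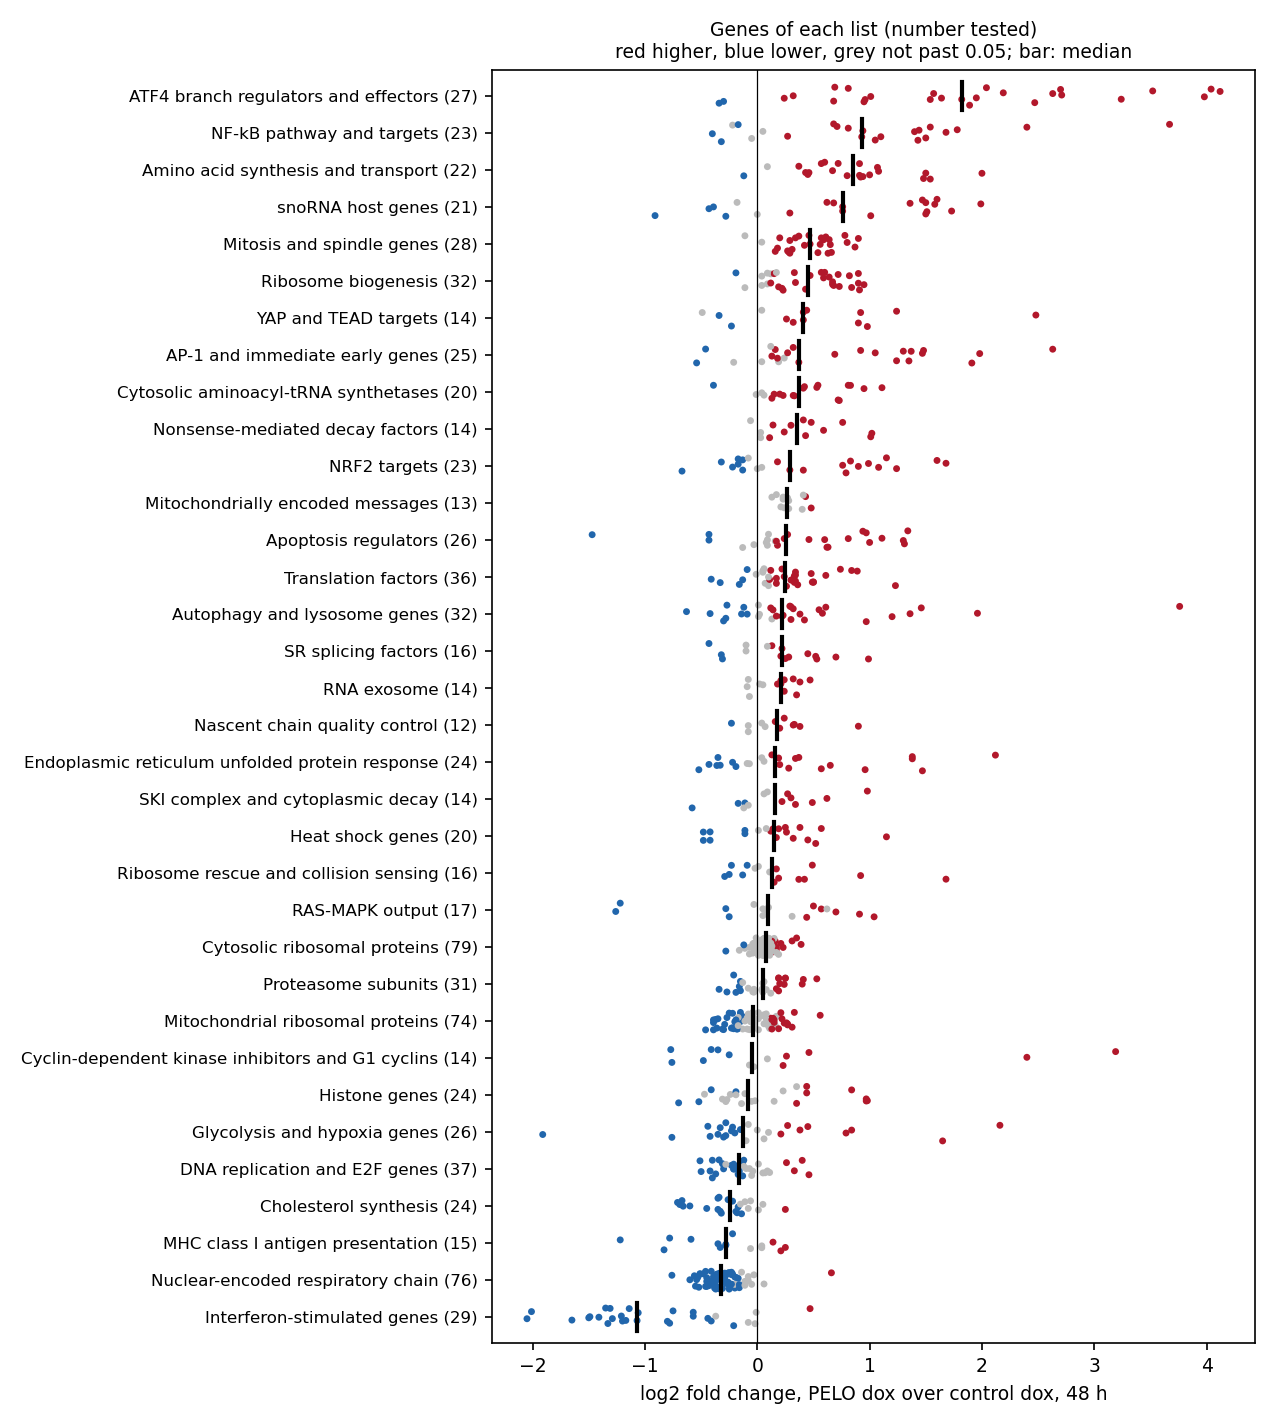
Log2 fold change (x axis, PELO dox over control dox, 48 h) of each tested gene in each list (y axis, number tested in parentheses), red for higher, blue for lower and grey for not past 0.05, with a bar at the list's median. The ATF4 branch list has the highest median (1.82) and the interferon-stimulated list the lowest (-1.07) of the lists drawn. All marker lists, epithelial, mesenchymal and of other cell types, are left out.

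The ATF4 branch had the highest median of the lists. ATF4 is translated when the initiation factor eIF2 is phosphorylated and drives genes for amino acid supply and stress. Of 27 tested genes 25 rose and 2 fell, and 18 rose at least 2-fold (median log2 1.82, against -0.04 for all genes). A further listed gene, STC2, had at most 2 counts. ATF4 is known to bind the composite element TGATGNAA. Short promoter stretches of 4 ATF4 branch genes and of ASNS, an amino acid gene, are printed because each holds that element and rose.

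Each sequence is from RefSeq on GRCh38.p14, written 5′ to 3′ on the strand of the gene, with the element or its reverse complement in capitals. They lie at chr1:212565192-212565247 (ATF3, plus strand), chr15:40953238-40953293 (CHAC1, plus), chr19:33374047-33374102 (CEBPG, plus), chr19:48755446-48755501 (FGF21, plus) and chr7:97872445-97872500 (ASNS, minus).
ATF3: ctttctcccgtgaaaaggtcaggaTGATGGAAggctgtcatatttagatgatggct
CHAC1: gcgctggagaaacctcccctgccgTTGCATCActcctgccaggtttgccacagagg
CEBPG: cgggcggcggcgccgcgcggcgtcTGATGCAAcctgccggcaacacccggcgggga
FGF21: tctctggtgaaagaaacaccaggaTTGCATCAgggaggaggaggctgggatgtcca
ASNS: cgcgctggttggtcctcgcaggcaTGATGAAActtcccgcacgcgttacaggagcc
The element, searched on both strands of the 250 bases before the start, was found for 6 of the 24 ATF4 branch genes with a promoter in the table, 3 of 17 amino acid genes and 3 of 16 transfer RNA synthetases, and all 12 rose. It is found for 1061 of 27305 symbols, 3.89%. Most tested genes of these lists rose, 25 of 27, 20 of 22 and 16 of 20, so the 12 rises do not set carriers apart. How many of the 1061 carriers rose was not counted.

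ATF3, a repressor-activator of the same family as ATF4, had 72.2, 70.5 and 73.3 CPM in PELO dox cells against 3.64, 4.25 and 4.50 CPM in control dox cells (log2 fold change 4.12 ± 0.10), with no-dox means of 14.4 CPM in the PELO line and 18.2 CPM in the control line. NIBAN1, a stress protein that moderates translation, was at 236, 221 and 216 CPM against 19.5, 20.4 and 18.7 CPM (log2 fold change 3.52 ± 0.09). These groups were far apart, with tight replicates on both sides. FGF21, a hormone of nutrient stress, had 1.32, 1.33 and 1.38 CPM against 0.0357, 0.0536 and 0.154 CPM, which rests on 193 against 13 counts over the 3 libraries each. CHAC1, which degrades glutathione, was at 25.8, 21.8 and 22 CPM in PELO dox cells against 5.43, 6.50 and 6.10 CPM in control dox cells (log2 fold change 1.95 ± 0.10), yet its no-dox means of 26.8 CPM and 33.6 CPM in the PELO and control lines were above the PELO dox level.

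ATF4's own message had 718, 743 and 723 CPM against 231, 229 and 241 CPM (log2 fold change 1.64 ± 0.06). Its partner CEBPG was at 159, 169 and 169 CPM in PELO dox cells against 57.0, 56.6 and 57.3 CPM in control dox cells (log2 fold change 1.54 ± 0.04), DDIT3, which encodes the pro-apoptotic factor CHOP, at 53.5, 56.4 and 54.7 CPM against 8.22, 8.20 and 8.77 CPM (log2 fold change 2.71 ± 0.08), and TRIB3, a pseudokinase induced with it, at 324, 318 and 313 CPM against 50, 47.6 and 49.8 CPM (log2 fold change 2.70 ± 0.06). These 4 genes, CHAC1, FGF21 and ASNS were chosen after their values were seen. EIF2AK1, the heme-regulated eIF2 kinase, fell (-0.34), and EIF2AK3, the kinase of the endoplasmic reticulum, rose by 0.24.

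The level in the no-dox libraries differed from list to list. Of the 18 ATF4 branch genes at least 2-fold higher, 12 were above every no-dox library in PELO dox cells and below every one in control dox cells, and in 5 only the control dox libraries lay outside the no-dox range. For amino acid genes that share was reversed, 1 and 5 of 6. Without dox, 18 of the 27 ATF4 branch genes and 18 of the 22 amino acid genes were lower in the PELO line and 0 were higher, against 4.72% lower and 6.37% higher of all genes, so the line difference before induction ran against the one with dox.

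Amino acid synthesis and transport counted 20 rises and 1 fall of 22 tested (median 0.85). SLC1A4, a serine and alanine transporter, had 38.8, 35.2 and 35.1 CPM in PELO dox cells against 9.29, 9.13 and 8.81 CPM in control dox cells (log2 fold change 2.00 ± 0.09), with no-dox means of 31.2 CPM in the PELO line and 45.4 CPM in the control line. CTH, which makes cysteine, was at 41.3, 41.5 and 39.6 CPM against 14.4, 14.2 and 13.6 CPM (log2 fold change 1.54 ± 0.08), and the glycine transporter SLC6A9 at 25.8, 23.1 and 22.9 CPM against 8.06, 9.0 and 8.36 CPM (log2 fold change 1.5 ± 0.08). In all 3 the PELO dox level lay near the no-dox levels and the control dox level well below them. ASNS, asparagine synthetase, followed the same course, with 125, 129.8 and 128 CPM in PELO dox cells against 59.4, 60.4 and 62.5 CPM in control dox cells and no-dox means of 129 CPM and 181 CPM in the PELO and control lines. ALDH18A1, a proline enzyme, was the 1 fall (-0.12), a call lost in several settings.

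Cytosolic aminoacyl-tRNA synthetases, which charge transfer RNAs, showed 16 rises and 1 fall of 20 (median 0.37). GARS1, the glycine enzyme, had 709, 735 and 736 CPM in PELO dox cells against 339.6, 332 and 338 CPM in control dox cells (log2 fold change 1.11 ± 0.04). SARS1 for serine (0.95) and TARS1 for threonine (0.83) came next, and QARS1 for glutamine fell (-0.39).

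**Figure D3:**
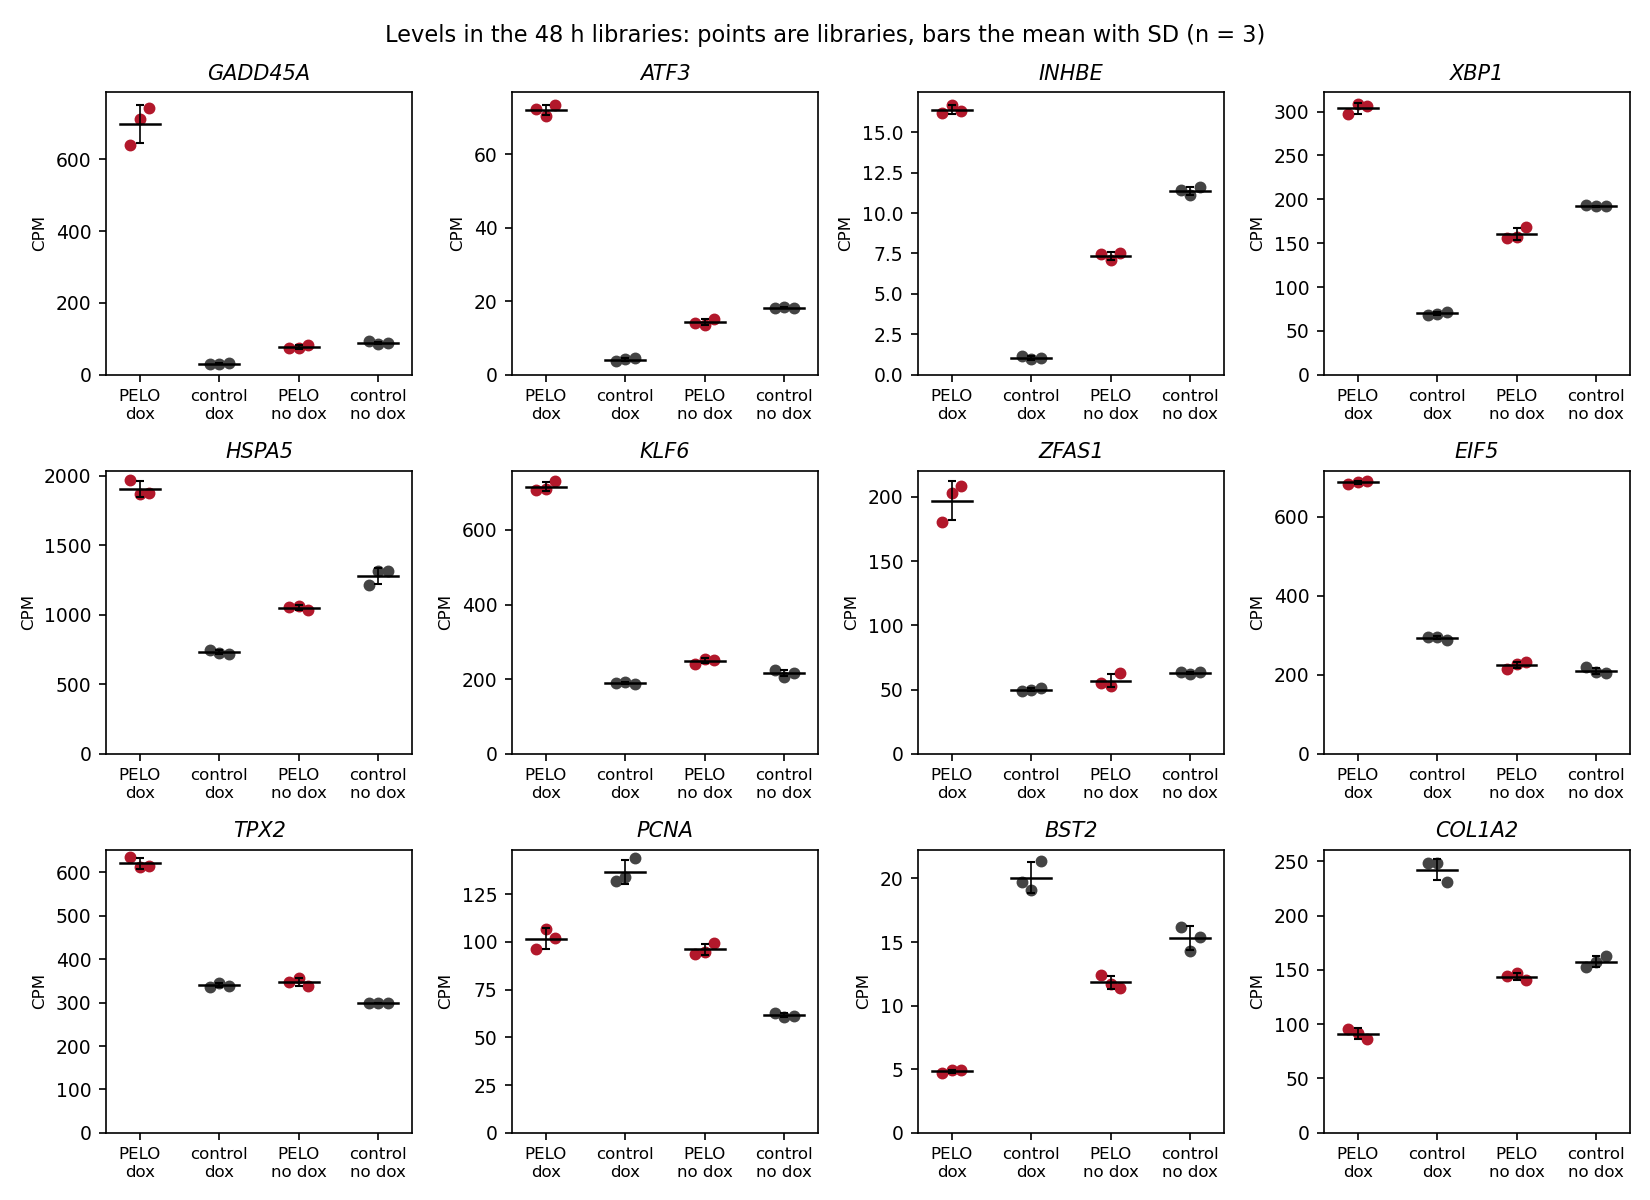
CPM (y axis, from 0) of 12 genes in the 48 h libraries of the PELO line with dox, the control line with dox and both lines without dox (x axis); points are libraries, bars the mean with SD of 3. GADD45A is at 639 to 743 CPM in PELO dox cells and at 29.5 to 32.8 CPM in control dox cells, and PCNA shows that lines could differ without dox as well.

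Genes of the unfolded protein response, which the endoplasmic reticulum starts under folding stress, split. Of 24 genes 13 rose and 7 fell (median 0.16), and 4 rose at least 2-fold, each of them beyond the no-dox libraries on both sides. XBP1, whose spliced form drives the response, had 297, 309 and 306 CPM in PELO dox cells against 68.6, 69.7 and 71.9 CPM in control dox cells (log2 fold change 2.12 ± 0.05). The lumenal chaperone HSPA5 (BiP) was at 1973, 1871 and 1875 CPM against 746, 725 and 721 CPM (log2 fold change 1.38 ± 0.05), and the co-chaperone DNAJB9 at 19.1, 21 and 21.1 CPM against 7.02, 7.95 and 7.07 CPM (log2 fold change 1.47 ± 0.07). The disulfide isomerase PDIA4 went the other way, at 211, 206 and 201 CPM against 295, 303 and 291 CPM (log2 fold change -0.52 ± 0.04).

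The endoplasmic reticulum stress element (CCAAT, any 9 bases, CCACG) was found before the start of 8 of the 23 genes of this list with a promoter in the table, against 25 of 27305 symbols (0.0916%). XBP1 and HSPA5, which rose, and CALR and PDIA6, which fell, are printed to show that carriers of the element went both ways, with the element or its reverse complement in capitals. They lie at chr22:28800579-28800645 (XBP1, minus strand), chr9:125241367-125241433 (HSPA5, minus), chr19:12938360-12938426 (CALR, plus) and chr2:10812829-10812895 (PDIA6, minus) on GRCh38.p14.
XBP1: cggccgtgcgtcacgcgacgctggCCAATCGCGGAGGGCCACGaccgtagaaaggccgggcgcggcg
HSPA5: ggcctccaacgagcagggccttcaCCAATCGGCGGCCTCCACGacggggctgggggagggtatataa
CALR: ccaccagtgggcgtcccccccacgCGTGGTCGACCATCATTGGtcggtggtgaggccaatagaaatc
PDIA6: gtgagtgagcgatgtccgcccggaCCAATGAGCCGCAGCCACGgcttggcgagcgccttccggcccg
Of the 8 carriers 3 rose (XBP1, HSPA5 and CANX), 3 fell (PDIA6, CALR and CRELD2) and 2 did not pass the test. CALR, a calcium-binding chaperone, had 610.5, 612 and 622 CPM in PELO dox cells against 772, 793 and 785 CPM in control dox cells (log2 fold change -0.35 ± 0.04), and PDIA6, an isomerase, 324, 340.0 and 347 CPM against 438, 435 and 429 CPM (log2 fold change -0.36 ± 0.04).

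Apoptosis regulators counted 16 rises and 3 falls of 26 (median 0.25). The BH3-only genes PMAIP1 (NOXA), at 30.7, 35.7 and 34 CPM in PELO dox cells against 13, 14.1 and 13.4 CPM in control dox cells, and BBC3 (PUMA), at 41.5, 41.1 and 40.0 CPM against 16.3, 16.3 and 17.3 CPM, rose by 1.31 and 1.30 on the log2 scale. The anti-apoptotic BCL2L1 rose too (1.11), though 43.0% of its exonic bases are shared with another gene, and BAD fell (-0.43). The no-dox means of BBC3 were 36.9 CPM in the PELO line and 46.0 CPM in the control line, near the PELO dox level. Those of PMAIP1 were 24 CPM and 26.6 CPM, between the 2 dox groups.

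Immediate early genes and NF-kB genes mostly rose. Of 25 AP-1 and immediate early genes 18 rose and 2 fell (median 0.37). DUSP5, a nuclear ERK phosphatase, had 68.1, 63.4 and 65.0 CPM in PELO dox cells against 10.5, 10.9 and 10.4 CPM in control dox cells (log2 fold change 2.63 ± 0.07). KLF4 was at 49.3, 47.6 and 48.1 CPM against 12.3, 12.2 and 12.3 CPM (log2 fold change 1.98 ± 0.06) and KLF6, another zinc finger factor, at 708, 710.0 and 731 CPM against 189, 193 and 188 CPM (log2 fold change 1.91 ± 0.04). FOS went down, with 35.4, 34 and 33.0 CPM against 50.8, 44.4 and 54.1 CPM (log2 fold change -0.54 ± 0.09).

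RAS-MAPK output genes gave 6 rises and 4 falls of 17, close to the background. AREG, an EGF receptor ligand, rose by 1.04, DUSP6 by 0.91 (40.5% exon sharing) and PHLDA1 by 0.70, while the feedback inhibitor SPRY1 had 23.5, 22.5 and 22.2 CPM in PELO dox cells against 56.3, 54.4 and 52.4 CPM in control dox cells (log2 fold change -1.26 ± 0.06). YAP and TEAD targets counted 10 rises and 2 falls of 14 (median 0.41), among them CCN1 at 601, 582 and 576 CPM against 256, 246 and 243 CPM (log2 fold change 1.24 ± 0.06), AJUBA (0.98) and the receptor kinase AXL (0.90). CRIM1 fell (-0.34).

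Of 23 tested NF-kB genes, 17 rose and 3 fell (median 0.94), and 4 more, IL6, CSF2, CCL2 and CCL20, had at most 2 counts. TRAF1, an adaptor induced by NF-kB, had 27.8, 23.7 and 24.3 CPM in PELO dox cells against 7.90, 6.73 and 7.47 CPM in control dox cells (log2 fold change 1.78 ± 0.09). The chemokine CXCL2 was at 23.1, 26.4 and 26.2 CPM against 8.22, 7.77 and 7.65 CPM (log2 fold change 1.68 ± 0.12) and the cytokine LIF at 178, 151 and 150.3 CPM against 56.5, 54.3 and 53.7 CPM (log2 fold change 1.54 ± 0.07). TNFAIP2 fell (-0.40). In 7 of the 11 genes up at least 2-fold, both dox groups lay beyond the no-dox libraries, in opposite directions.

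Interferon-stimulated genes had the lowest median of the pathway lists. Of 29 tested, 24 fell and 1 rose, 16 of the falls at least 2-fold (median -1.07), and 6 more listed genes had too few counts to test. The summed level of the tested genes was 346 to 361 CPM in PELO dox libraries and 576 to 598 CPM in control dox libraries. In 14 of the 16 the PELO dox libraries lay below all no-dox libraries and the control dox libraries above them. Without dox 9 of the 29 were already lower in the PELO line and 0 higher (median -0.22). Of all genes 4.72% were lower and 6.37% higher there. With dox minus without dox 20 of the 29 were lower and 2 higher, against 24.9% and 22.9% of all genes. In bulk RNA, fewer cells expressing a gene and less RNA per cell cannot be told apart.

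The interferon response element (GAAA, any 2 bases, GAAA) stood before the start of 19 of the 27 listed genes with a promoter in the table, against 3.71% of symbols. Of the 17 tested carriers 14 fell, 1 rose (IFIT5) and 2 did not pass the test. Most tested genes of the list fell, 24 of 29, so the 14 falls do not set carriers apart. How many of the 1014 symbols with the element fell was not counted. Stretches of 3 falling genes and of IFIT5 are printed to show that carriers of the element went both ways, with each copy of the element or its reverse complement in capitals, at chr19:17405727-17405784 (BST2, minus strand), chr10:89392483-89392540 (IFIT1, plus), chr4:88456970-88457027 (HERC5, plus) and chr10:89414499-89414558 (IFIT5, plus) on GRCh38.p14.
BST2: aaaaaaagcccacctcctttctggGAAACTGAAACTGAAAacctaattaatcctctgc
IFIT1: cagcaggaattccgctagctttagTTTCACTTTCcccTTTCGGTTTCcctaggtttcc
HERC5: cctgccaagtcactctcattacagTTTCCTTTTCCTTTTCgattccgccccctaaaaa
IFIT5: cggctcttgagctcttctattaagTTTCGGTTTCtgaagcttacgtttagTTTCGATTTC
All 4 windows carry more than 1 copy of the element within the 250 bases, or overlapping copies. Matches of 2 different elements overlapped in 6 promoters for the ATF4 and interferon elements and in 1 for the interferon and endoplasmic reticulum stress elements.

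BST2 (tetherin), which holds budding viruses at the membrane, had 4.70, 4.92 and 4.91 CPM in PELO dox cells against 19.7, 19.1 and 21.4 CPM in control dox cells (log2 fold change -2.05 ± 0.08, adjusted p = 1.83e-22, edgeR quasi-likelihood test). IFIT1, which binds foreign RNA caps, was at 17.5, 17.8 and 15.8 CPM against 48.6, 48.5 and 46.2 CPM (log2 fold change -1.49 ± 0.06), OASL at 6.91, 6.90 and 7.53 CPM against 22.2, 19.1 and 19.2 CPM (log2 fold change -1.5 ± 0.16) and ISG15, the ubiquitin-like modifier, at 7.89, 8.14 and 7.97 CPM against 18.1, 18.7 and 18.9 CPM (log2 fold change -1.21 ± 0.09). IFIT5, the 1 rise, was at 34.1, 34.4 and 32.8 CPM against 25.3, 24.1 and 23.6 CPM (log2 fold change 0.47 ± 0.05). No library of 1 group reached the range of the other in these 5 genes, and for BST2 the rule for naming it required this. Such separation was common, with 29.3% of all genes higher and 32.2% lower without overlap. HERC5, which attaches ISG15 to proteins, fell as well (-1.35); it and ISG15 were named after their values were seen.

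The genes of MHC class I presentation followed in part, with 9 falls and 3 rises of 15 (median -0.28). The trimming peptidase ERAP2 had 5.37, 5.63 and 5.53 CPM in PELO dox cells against 13.7, 13.1 and 11.8 CPM in control dox cells (log2 fold change -1.22 ± 0.08), the loading factor TAPBP 95.0, 89.2 and 86.4 CPM against 156, 155 and 153 CPM (log2 fold change -0.78 ± 0.05), and the light chain B2M 198, 229.9 and 228 CPM against 266, 271 and 289 CPM (log2 fold change -0.33 ± 0.06). TAP2 was higher, at 38.8, 38.1 and 37.3 CPM against 32.0, 32.2 and 31.7 CPM, with 32.3% of its exonic bases shared.

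Host genes of small nucleolar RNAs, many of them noncoding and known targets of nonsense-mediated decay once spliced, were among the most raised. Of 21, which include TAF1D and SNHG32, annotated as protein-coding, 15 rose and 4 fell, and 10 of the rises were at least 2-fold (median 0.76). ZFAS1 had 180.2, 203 and 208 CPM in PELO dox cells against 48.8, 49.3 and 51.0 CPM in control dox cells (log2 fold change 1.99 ± 0.07), with 46.9% of its exonic bases shared. SNHG17 was at 63.2, 64.2 and 63.4 CPM against 17.4, 20.4 and 19.6 CPM (log2 fold change 1.73 ± 0.07), SNHG12 at 45.2, 49.7 and 47.9 CPM against 14.6, 15.4 and 17.1 CPM (log2 fold change 1.60 ± 0.15), and GAS5, named after its values were seen, at 545, 652 and 652 CPM against 208, 219 and 226 CPM (log2 fold change 1.5 ± 0.06). SNHG19 fell (-0.91). In 6 of the 10 hosts up at least 2-fold both dox groups lay beyond the no-dox libraries and in 4 only PELO dox cells did.

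The decay factors themselves rose as well, 11 of 14 with 0 falls (median 0.35). SMG5 had 149.5, 141 and 133 CPM in PELO dox cells against 69.2, 71.4 and 68.3 CPM in control dox cells (log2 fold change 1.02 ± 0.06), SMG9, a partner of the SMG1 kinase, 30.3, 28.0 and 26.9 CPM against 14.2, 13.8 and 14.1 CPM (log2 fold change 1.01 ± 0.09), and UPF3B, which links decay to the exon junction, 95.9, 109 and 109 CPM against 59.5, 61.8 and 64.7 CPM (log2 fold change 0.76 ± 0.14). SR splicing factors and their kinases gave 10 rises and 3 falls of 16 (median 0.22), with CLK1 (0.99), TRA2B (0.70) and CLK4 (0.53) highest and SRSF5 lower (-0.43).

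Genes that build ribosomes and start translation mostly rose. Ribosome biogenesis genes counted 24 rises and 1 fall of 32 (median 0.45). WDR43 was at 276, 279.5 and 277 CPM in PELO dox cells against 144, 143 and 145 CPM in control dox cells (log2 fold change 0.95 ± 0.04), the helicase DDX21 at 823, 854 and 849.8 CPM against 457, 447 and 442 CPM (log2 fold change 0.91 ± 0.04) and the snoRNP protein NOP58 at 245, 287 and 287 CPM against 145, 142 and 151 CPM (log2 fold change 0.90 ± 0.06). UBTF, a factor of the RNA polymerase that reads ribosomal DNA, fell (-0.19). Translation factors gave 24 rises and 5 falls of 36 (median 0.25): EIF5, a GTPase activator of initiation, had 683, 687 and 691 CPM against 296, 296 and 289 CPM (log2 fold change 1.23 ± 0.04), EIF1 943, 1006 and 1001 CPM against 514, 529 and 550.0 CPM (log2 fold change 0.89 ± 0.04), and EIF6 rose by 0.84. EIF5 lay above the no-dox means of both lines in both dox groups, 224 CPM in the PELO line and 210.4 CPM in the control line. EIF2B1, a subunit of the eIF2 exchange factor, fell (-0.41).

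Of the 79 messages for cytosolic ribosomal proteins, 11 rose and 2 fell (median 0.08), fewer than the 27.6% and 29.6% of genes in general. The count of rises ran from 4 to 45 over the settings, 17 without PELO dox replicate 1 and 4 without control dox replicate 1, and 45 with only the compared libraries and a replicate block, so it has no firm value. RPL10A had 1004, 1103 and 1092 CPM in PELO dox cells against 788, 819 and 838 CPM in control dox cells (log2 fold change 0.39 ± 0.05), and RPL22 was the largest fall (-0.28). The summed level was 72582 to 80312 CPM in PELO dox libraries and 69854 to 75745 CPM in control dox libraries, ranges that overlapped.

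Messages of the mitochondrial respiratory chain encoded in the nucleus fell nearly throughout, 66 of 76 with 1 rise (median -0.33), though none by 2-fold. NDUFB6, a subunit of complex I, had 14.7, 18.4 and 17.7 CPM in PELO dox cells against 27.6, 28.5 and 30.0 CPM in control dox cells (log2 fold change -0.76 ± 0.10), NDUFB4 50.8, 56.5 and 55.1 CPM against 80.3, 80.1 and 86.1 CPM (log2 fold change -0.60 ± 0.06) and the ATP synthase subunit ATP5MF 41.2, 45 and 43.0 CPM against 59.6, 62.9 and 68.6 CPM (log2 fold change -0.56 ± 0.07). Cytochrome c, CYCS, was the rise, at 330.2, 406 and 426 CPM against 233, 246 and 257 CPM (log2 fold change 0.66 ± 0.08). The list summed to 6906 to 7516 CPM in PELO dox libraries and 8475 to 9102 CPM in control dox libraries.

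Without dox 17 of these 76 genes were higher in the PELO line and 0 lower, and with dox minus without dox 69 were lower, against 24.9% of all genes. Mitochondrial ribosomal proteins were divided, 16 up and 25 down of 74 (median -0.04), with MRPL16 lowest (-0.46) and MRPL49 highest (0.56) of those named. The 13 messages made inside mitochondria had 2 rises, MT-ND1 (0.48) and MT-ND2 (0.43), each lost when any of several libraries was left out. That count was 10 with only the compared libraries and 13 with a replicate block added, and 0 without control dox replicate 1.

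Genes of cholesterol synthesis counted 17 falls and 1 rise of 24 (median -0.24). TM7SF2, a sterol reductase, had 20.4, 21.3 and 21.4 CPM in PELO dox cells against 33.7, 33.9 and 34.3 CPM in control dox cells (log2 fold change -0.69 ± 0.07), and HSD17B7 had 13.9, 15.5 and 15.5 CPM against 23.3, 24.5 and 23.7 CPM (log2 fold change -0.67 ± 0.06). CYP51A1 rose (0.25), but 83.2% of its exonic bases are shared with another gene. Glycolysis and hypoxia genes gave 8 rises and 13 falls of 26 (median -0.12), with the glucose transporter SLC2A3 lower (-0.76) and adrenomedullin, ADM, higher at 23.5, 23.0 and 24.5 CPM against 5.20, 5.18 and 5.48 CPM (log2 fold change 2.16 ± 0.08).

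Cell cycle genes parted by phase. DNA replication and E2F genes had 21 falls and 4 rises of 37 (median -0.17): POLD1 was at 59.5, 54.1 and 50.7 CPM in PELO dox cells against 75.6, 78.9 and 78.9 CPM in control dox cells (log2 fold change -0.51 ± 0.05), POLE2 at 7.97, 8.82 and 8.93 CPM against 11.7, 12.2 and 12.5 CPM (log2 fold change -0.50 ± 0.07) and the sliding clamp PCNA at 96.1, 107 and 102 CPM against 132, 134 and 144 CPM (log2 fold change -0.42 ± 0.05). GINS3 rose (0.46). Without dox 30 of the 37 were higher in the PELO line and 0 lower (median 0.31), so the lines differed in this group before induction and in the other direction.

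Mitosis and spindle genes rose, 26 of 28 with 0 falls (median 0.47). UBE2C, which feeds the anaphase ligase, had 229.7, 245 and 239.7 CPM in PELO dox cells against 119.7, 130.1 and 135 CPM in control dox cells (log2 fold change 0.90 ± 0.05), the spindle factor TPX2 635, 613 and 615 CPM against 337, 345 and 338 CPM (log2 fold change 0.87 ± 0.05) and the kinase AURKA 222, 231 and 229 CPM against 127, 132 and 134 CPM (log2 fold change 0.80 ± 0.06). Here 17 of the 28 were higher in the PELO line without dox too and 0 lower, against 6.37% and 4.72% of all genes. The difference with dox minus that without was past 0.05 and positive for 14 and negative for 2, against 22.9% and 24.9% of all genes. In HBS1L dox cells over control dox cells 17 of the 28 were also higher and 0 lower (median 0.18). PELO dox cells over HBS1L dox cells had 22 higher and 2 lower. Cyclin-dependent kinase inhibitors and G1 cyclins were mixed, 5 up and 6 down of 14. CCND2 had 9.88, 11.5 and 10.9 CPM against 1.00, 1.18 and 1.35 CPM (log2 fold change 3.19 ± 0.12, 13.8% exon sharing). CDKN1A, the inhibitor p21, named after its values were seen, had 24.3, 23.5 and 22.6 CPM against 4.04, 4.52 and 4.79 CPM (log2 fold change 2.40 ± 0.11). CDKN2C (-0.77), RBL2 (-0.76) and CDK6 (-0.48) fell. Of 24 tested histone genes 7 rose and 4 fell, with H3-3A at -0.52.

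Protein turnover and protective genes rose in part. Autophagy and lysosome genes gave 20 rises and 8 falls of 32 (median 0.22). WIPI1, which binds the growing autophagosome, had 55.6, 55.2 and 59.3 CPM in PELO dox cells against 14.0, 15.3 and 14.4 CPM in control dox cells (log2 fold change 1.96 ± 0.06, 28.1% exon sharing), MAP1LC3B 332, 376 and 372 CPM against 127, 132 and 135 CPM (log2 fold change 1.46 ± 0.05) and GABARAPL1 65.1, 63.1 and 64.3 CPM against 25.5, 25.1 and 24.2 CPM (log2 fold change 1.36 ± 0.06). The protease CTSB fell (-0.63). All 5 genes of this list up at least 2-fold lay beyond the no-dox libraries on both sides.

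NRF2 targets counted 13 rises and 7 falls of 23 (median 0.29), with MAFF (1.68), OSGIN1 (1.60) and NFE2L2, which encodes NRF2 itself (1.24, 20.9% exon sharing), highest of those named and PIR lower (-0.67). Heat shock genes gave 12 rises and 6 falls of 20, led by CHORDC1, an HSP90 co-chaperone, at 83.2, 95.7 and 95.8 CPM in PELO dox cells against 39.1, 40.3 and 44.5 CPM in control dox cells (log2 fold change 1.15 ± 0.06), while HSPA1B fell (-0.48, 36.5% exon sharing). Proteasome subunits had 11 rises and 7 falls of 31 (median 0.05), from PSMD14 (0.53) to PSMA2 (-0.34).

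Markers of epithelial state moved in both directions. Of 11 tested, 5 rose and 3 fell: the junction proteins OCLN, at 62.2, 63.6 and 62.1 CPM in PELO dox cells against 23.6, 22.6 and 20.7 CPM in control dox cells (log2 fold change 1.49 ± 0.05), CLDN4 (0.88) and TJP1 (0.82) rose, while MUC1 had 5.61, 5.42 and 5.25 CPM against 14.6, 14.6 and 15.4 CPM (log2 fold change -1.45 ± 0.07). KRT19 also fell, at 137, 136 and 136 CPM against 220.2, 235 and 228 CPM. The largest fall of the list was that of TJP3 (-2.31), named above. Of 5 tested mesenchymal markers 2 rose and 1 fell, with log2 fold changes from -1.19 to 0.975. Among them ZEB1, a repressor of epithelial genes, rose (0.53), and VIM did not pass the test.

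Markers of other cell types are given for the whole lists. Fibroblast markers had 1 rise and 3 falls among 4 of 9 tested, with a summed level of 91.7 to 101 CPM in PELO dox libraries and 247 to 266 CPM in control dox libraries, nearly all of it COL1A2, at 96.0, 91.5 and 86.7 CPM against 248, 248 and 231 CPM (log2 fold change -1.41 ± 0.05). DCN, LUM, THY1 and FAP had at most 3 counts. Endothelial markers had 3 falls of 3 tested among 7 listed, summing to 56.3 to 64.4 CPM in PELO dox libraries and 93.5 to 99.4 CPM in control dox libraries, with CDH5 at 10.7, 7.30 and 8.23 CPM against 30.2, 25.9 and 26.1 CPM (log2 fold change -1.65 ± 0.15), while PECAM1, KDR and TEK had at most 1 count. Leukocyte markers had 2 rises and 1 fall among 3 of 9 tested, with log2 fold changes from -2.19 to 1.2. They summed to 28.5 to 28.8 CPM in PELO dox libraries and 29.1 to 29.4 CPM in control dox libraries, so near-equal sums held opposite changes. PTPRC, CD3D and CD3E had at most 1.5 counts. Each list thus held members near 0 and members that were expressed: a library had up to 3727 counts of ENG, 1293 of CD68 and 475 of CD14. The part of other cell types in these values was not tested.

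How far the lines stood apart before induction bears on the comparison with dox. Without dox at 48 h, 1322 genes were higher in the PELO line (6.37%) and 981 lower (4.72%), 21 and 70 of them by at least 2-fold (0.101% and 0.337%). Of the 888 genes at least 2-fold higher with dox, 42 (4.73%) were also higher without it and 153 (17.2%) were lower. Of the 1153 at least 2-fold lower with dox, 112 (9.71%) were also lower without it and 29 (2.52%) higher. The difference with dox minus that without was past 0.05 for 9939 genes (47.9%), 4766 of them positive (22.9%) and 5173 negative (24.9%).

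**Figure D4:**
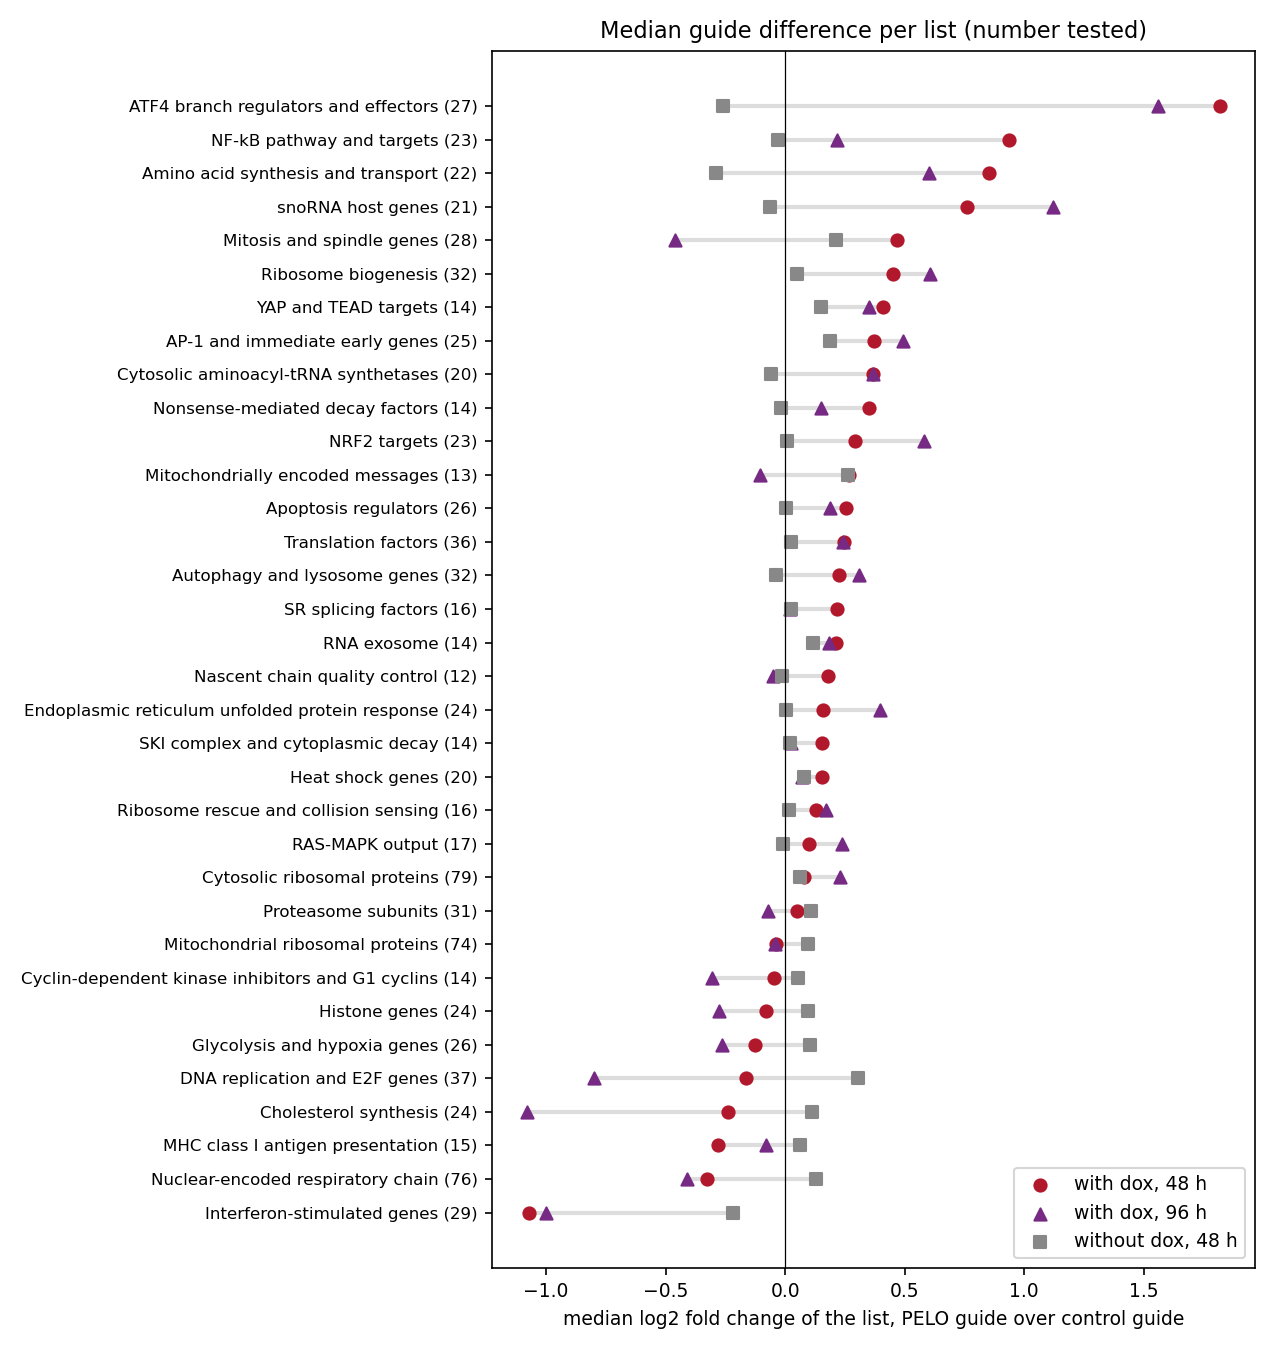
Median log2 fold change of each list (x axis, PELO guide over control guide) with dox at 48 h, with dox at 96 h and without dox at 48 h, for the lists on the y axis (number tested). Mitosis genes stand at 0.47 at 48 h and at -0.46 at 96 h, and cholesterol synthesis at -0.24 and -1.08.

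The same contrast in separate libraries at 96 h called 13346 genes (64.3%), 1687 and 1679 of them at least 2-fold higher and lower (8.12% and 8.08%). Of the 5741 genes higher at 48 h, 4504 were higher at 96 h, which is 78.5% of them and 65.5% of the 6879 higher at 96 h, and 350 (6.1%) were lower. Of the 6149 lower at 48 h, 4363 were lower at 96 h (71.0%, and 67.5% of the 6467). Among the 888 and 1153 genes changed at least 2-fold, 805 (90.7%) and 758 (65.7%) kept their direction past the threshold. Across 20767 genes the 2 sets of log2 fold changes had a Pearson r of 0.717 and a Spearman rho of 0.696, a description over genes that share these libraries and are not independent. Labels place the libraries of the 2 times in separate blocks of numbers, so that time and batch cannot be told apart.

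Between the times, the guide difference itself changed for 7049 genes (33.9%), upward for 17.1% and downward for 16.8% of those tested. Of all genes, 33.1% were higher and 31.1% lower at 96 h. At 96 h 23 of 28 mitosis genes were lower and 3 higher, and the change between times was past 0.05 and negative for all 28. All 33 DNA replication genes whose difference changed did so downward, as did the 19 of 24 cholesterol genes that changed. The ATF4 branch stayed raised at 96 h (23 up and 1 down, median 1.56), with 11 differences lower and 2 higher than at 48 h. Of NF-kB genes 12 were up and 8 down at 96 h, and 14 differences were lower than at 48 h against 2 higher. Interferon-stimulated genes remained low as a list, 25 down and 1 up (median -1.0), and cytosolic ribosomal protein messages counted 55 rises and 3 falls of 79.

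The HBS1L line with dox was set against the same control dox libraries, so its values are given beside those above and not tested for overlap. It called 4791 genes (23.1%), 9.47% of all genes higher and 13.6% lower, 109 and 63 at least 2-fold higher and lower (0.525% and 0.303%). The number fell to 2102 without control dox replicate 1 and to 2740 without HBS1L dox replicate 2. GADD45A was at 0.50, ATF3 at 0.49 and INHBE at -0.06 in HBS1L dox cells over control dox cells, where PELO dox cells had 4.51, 4.12 and 3.98. The ATF4 branch had a median of 0.05 there (5 up and 3 down of 27), the interferon-stimulated genes -0.38 (0 up and 21 down of 29) and the nuclear-encoded respiratory chain 0.18 (36 up and 1 down of 76). Small nucleolar RNA host genes had a median of 0.24 (15 up and 1 down of 21, against 15 up and 4 down with the PELO guide), and AP-1 and immediate early genes 0.23 (16 up and 1 down of 25, against 18 up and 2 down). Of the AP-1 and immediate early genes, 10 were higher and 3 lower in the PELO line without dox as well. PELO dox cells against HBS1L dox cells directly gave 12459 genes past 0.05 (60.0%), 28.9% higher and 31.1% lower, with 25 of 27 ATF4 branch genes higher and 2 lower in the PELO line and 73 of 76 respiratory chain genes lower. HBS1L itself was at -1.90 in HBS1L dox cells over control dox cells, while PELO was at -0.01.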

How the data were processed

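Polyadenylated RNA of MIA PaCa-2 cells was sequenced in 36 libraries, of which 6 are compared here and 15 more are set beside them. The labels' protocols name the NEB Ultra II kit and do not say whether it marked strand. Tools named per the submitters' processing notes are limma, edgeR, Subread with featureCounts and DRAGEN, on GRCh38.p13. Nothing is stated of versions, order or options (not given in the sources used here). Expected counts stand in the authors' deposited table for 61544 genes, 45.6% of the values above 0 being fractional. A second deposited table holds the authors' log2 CPM for 17138 genes and served only as an alternative. That table was filtered by the authors, and its expected counts were scaled per library.

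Expected counts were rounded to whole numbers and tested in R 4.3.3 with edgeR 4.0.16: filterByExpr (minimum count 10, minimum total 15; 20767 genes kept), TMM scaling, and a robust quasi-likelihood fit with a mean for each of 12 groups over the 36 libraries, with Benjamini-Hochberg adjustment at 0.05. Contrasts were PELO dox minus control dox at 48 h and 96 h, the same without dox, differences between these, and both against HBS1L dox. TMM factors were 0.9798 to 0.983 in PELO dox and 1.045 to 1.052 in control dox libraries. The test was checked on simulated data. With 47853059 to 53601764 counts per library among the 6 compared, counting error is small above a few CPM, and the spread between libraries sets the precision.

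Genes were named by rule: PELO, HBS1L, SKI genes and FOCAD; the 12 largest rises and falls with a mean of at least 1 CPM and no overlap; and per list up to 3 members in the direction of the median and 1 in the other, with a mean of at least 5 CPM. Some genes that this rule names are not reported here. The lists and members were chosen with earlier results of these data known. Coordinates and shared exons came from GENCODE 29 on GRCh38 (20128 tested genes matched), promoters from RefSeq on GRCh38.p14. Genes sharing exons are uncertain, since fractional counting can split reads. Alternatives were other size factors, other filters, DESeq2 1.42.0, limma 3.58.1 on the authors' log2 values, fewer libraries, a replicate block and each library left out.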

Additional observations from a re-analysis of the deposited data

Results flagged for a closer look

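For 7049 genes the guide difference with dox at 96 h minus that at 48 h was past 0.05 in edgeR's quasi-likelihood test. Listed here are the named genes for which it was also at least 2-fold, or which passed the test in opposite directions at the 2 times. Time cannot be told apart from batch. Values are that difference on the log2 scale.

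Among the largest rises, ALOX5AP had 2.33, so that its rise was larger at 96 h, while L3MBTL2-AS1 (-2.15), ATF3 (-1.18), INHBE (-1.57) and FUT1 (-1.24) stood less far apart at 96 h than at 48 h, and all remained higher in PELO dox cells. ATF3, for example, had a log2 fold change of 2.95 at 96 h against 4.12 at 48 h. ZFAS1 (1.08) rose further.

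Several falls were deeper at 96 h. They were PIEZO2 (-1.48), BST2 (-1.09), LIPG (-1.38), OAS2 (-1.44), IFIT1 (-1.53), the sterol enzyme HSD17B7 (-1.05), the polymerase POLD1 (-1.06), the collagens COL3A1 (-1.29) and COL1A2 (-1.24) and the cadherin CDH5 (-2.59). IFIT1, for instance, had a log2 fold change of -3.02 at 96 h against -1.49 at 48 h.

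Calls in opposite directions were found for HBS1L, CDK6 and ANKZF1. HBS1L (0.66) was lower at 48 h, a call lost in several settings, and higher at 96 h (0.57). CDK6 (0.81) was lower at 48 h and higher at 96 h (0.34). ANKZF1 (-0.64) was higher at 48 h and lower at 96 h (-0.26).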

How the results depend on the processing

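The count of genes called between PELO dox and control dox cells at 48 h stayed between 10785 and 12175 under the other settings, against 11890, and between 11108 and 11280 when a library was left out. Leaving out a library gave 5306 to 5455 rises, 5768 to 5860 falls, and 859 to 891 rises and 1145 to 1198 falls of at least 2-fold. Falls of at least 2-fold numbered 566 with a minimum count of 50, which tests 15522 genes, and limma on the authors' log2 CPM table, which holds 17138 genes, gave 543 rises and 760 falls of that size. In edgeR with the size factors that DESeq2 uses, the split turned into 5963 rises and 5872 falls. Rises also outnumbered falls in DESeq2 itself (5766 and 5588), with a minimum count of 50 (5457 and 5328) and with only the libraries compared (5667 and 5609). Falls outnumbered rises in the other settings and with each library left out. Which direction had more calls is therefore not firm. Leaving out a library gave 1580 to 1976 genes without dox, 9414 to 9590 for the difference of differences, 12533 to 12929 at 96 h, 6413 to 6763 between the times, 11467 to 11940 against HBS1L dox, and 2102 to 4644 for HBS1L dox against control dox, where the cause was not tested. Of 164 named genes 158 kept direction and call under every setting that tested them; HBS1L, SKIC8, ALDH18A1, MT-ND1, MT-ND2 and H2AZ1 lost the call in at least 1. No direction was reversed among the named genes. List medians were less firm: with a library left out 42 values moved and 192 did not, and under the other settings 66 moved and 246 did not. A median was taken as moved where it shifted by more than its SD over the PELO dox libraries. Of the counts of rises and falls per list, 28 moved and 440 did not with a library left out. Under the other settings 28 of these counts moved and 596 did not.

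Replicate numbers are shared by the groups. The deviations of same-numbered PELO dox and control dox libraries correlated at 0.494, 0.0341 and 0.445, and those of differently numbered ones at -0.478 to 0.321. PELO dox replicate 2 correlated best with control dox replicate 3 (0.321). Without dox at 48 h the same-numbered libraries of the 2 lines correlated at -0.46, 0.109 and -0.512. The numbers were therefore not taken as pairs. With a replicate block the calls were 11869 (36 libraries) and 12175 (only the libraries compared), against 11890 and 11276 without it. Without dox the fit on only the libraries compared, with a replicate block, gave 1337 calls, against 2303, and the cause was not tested. Depth limits mainly genes below 1 CPM.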
